A study of Mus musculus with 24 samples.

Results

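The 6 libraries described here are the untreated controls of a neuronal cell line from the hypothalamus of adult mice, 3 in high glucose (HGC) and 3 in normal glucose (NGC), out of 24 libraries in all. They were chosen by their sample titles, and neither group received mogroside V, the sweet glycoside of monk fruit that the rest of the series was given. The treated cultures HG1, HG2 and HG3 in high glucose were set against NG1, NG2 and NG3 in normal glucose only to see whether a difference between the media was also found in libraries that the controls do not share. The series used 15, 60 and 160 µM mogroside V, and which of these each dose number stands for is not labelled. The glucose concentrations, the rest of the medium, the time in culture and the clonal origin of the line are not given in the sources used here. Whether the 3 replicates of a group were grown separately is not stated. The p-values thus measure the spread between libraries of a group, pooled over the 8 groups of the series, and that spread may be technical.

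Glucose reaches gene expression by several routes. Cells turn part of it into amino sugars for glycoproteins and matrix polysaccharides, part into lipid, and part into energy, and nutrient-sensing Rag GTPases with folliculin report amino acid supply from the lysosome surface to mTORC1 and to transcription factors of the TFEB family. Many cultured cells in high glucose are also known to change their secretion of matrix proteins, proteases and TGF-beta family ligands, and their growth factor signalling through the kinase ERK.

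Reads assigned to genes numbered 3508021 to 4222354 in the HGC libraries and 4206607 to 5210198 in the NGC libraries. The share of those reads on mitochondrially encoded genes was 6.81 to 7.05% in HGC and 7.49 to 8.10% in NGC, and 17110 to 17967 genes had a count in HGC, against 18169 to 18672 in NGC. Neither measure overlapped between the groups (exact permutation test, two-sided p = 0.1 for each, the smallest that 3 against 3 allows), and the part of these differences in the results below was not tested. HGC replicate 2 lay apart from the other controls on the first principal component, which held 30.1% of the variance, at -47.1, against -1.21 and -9.62 in the other HGC libraries and 15.0 to 23.9 in NGC. In CPM, read counts scaled to the total of all gene counts, the neuronal cytoskeleton genes Tubb3 and Map2 averaged 53 and 44.1 CPM in HGC and 57.4 and 47.6 in NGC. Snap25, Dcx and Elavl4, which define neurons more narrowly, had no count in any of the 6 libraries. Rbfox3, the gene of the neuronal nuclear protein NeuN, had 2 counts in the 6 libraries together. Other neuron markers were detected, such as Stmn2 at 17.1 CPM in HGC and 18.5 in NGC and Eno2 at 26.6 in HGC and 21.0 in NGC, and 3 of the 17 listed had no count. Of 19 listed markers of hypothalamic neurons 10 had no count and 1 was tested. Of 14 listed astrocyte and tanycyte markers 4, Gfap among them, had no count and 7 were tested. In that list Vim and Gja1 averaged 3017 and 54.1 CPM in HGC and 3695 and 54.8 in NGC. Of the fibroblast and pericyte list, Col1a2 and Acta2 averaged 3505 and 1873 CPM in HGC and 3247 and 1684 in NGC, whereas Lum had 1 count, Fap 10 and Rgs5 20 in the 6 libraries together. Of 8 tested fibroblast and pericyte markers 1 was called higher in HGC, and of 9 tested neuron markers none was called. The summed fibroblast and pericyte list was 7291 to 7941 CPM in HGC and 6714 to 7033 in NGC, which did not overlap, and its part in the matrix results below was not tested. Nor did the astrocyte and tanycyte list overlap, at 3049 to 3423 CPM in HGC and 3738 to 4238 in NGC. The microglia list, at 174 to 208 and 131 to 172 CPM, and the muscle list, at 5.13 to 7.11 and 25.0 to 33.2 CPM, did not overlap either. The neuron list did overlap, at 162 to 182 CPM in HGC and 174 to 182 in NGC. Fewer cells of a type and less RNA per cell cannot be told apart in such bulk libraries.

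Outside 3 lists that were set aside, of 28 genes of cholesterol synthesis and uptake, 11 of cholesterol efflux and 45 of lysosomes and autophagy, 213 genes were higher and 52 lower in HGC than in NGC. A gene was called here where its edgeR quasi-likelihood p, adjusted by Benjamini and Hochberg over all 13281 tested genes, was under 0.05. Over all tested genes 2.28% were called, 1.89% higher and 0.392% lower. The gene lists counted below were chosen with earlier results of these data known. In the 58 lists not set aside 74 of 869 tested members were called, and the part of that choice in their shares was not tested. The 213 rises had a median log2 change of 0.76 and included 56 of at least 2-fold, whereas the 52 falls had a median of -0.72 and included 12 of at least 2-fold. The median over all tested genes was -0.01. Of the 213 rises 89, and of the 52 falls 8, passed every time when each of the 6 control libraries was left out in turn. The 3 libraries of one medium did not overlap with those of the other in 213 of the 213 rises and in 51 of the 52 falls, and over all tested genes 8.95% were free of overlap and higher, 8.87% free of overlap and lower, and 17.8% either. The test itself favours genes without overlap, so their lack of overlap is no separate support for the calls. The 213 rises still hold genes of lysosomes and autophagy that are on none of these lists. Among them are 6 subunits of the lysosomal proton pump and, chosen after the values were seen, Gabarap, Mfsd1, Scpep1, Dpp7, Glmp, Pld3 and Vps33a. Levels below are in CPM, read counts scaled to the library total with TMM factors, and not corrected for gene length, so they compare libraries and not genes. Changes are log2 HGC over NGC ± standard error (SE).

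**Figure D1:**
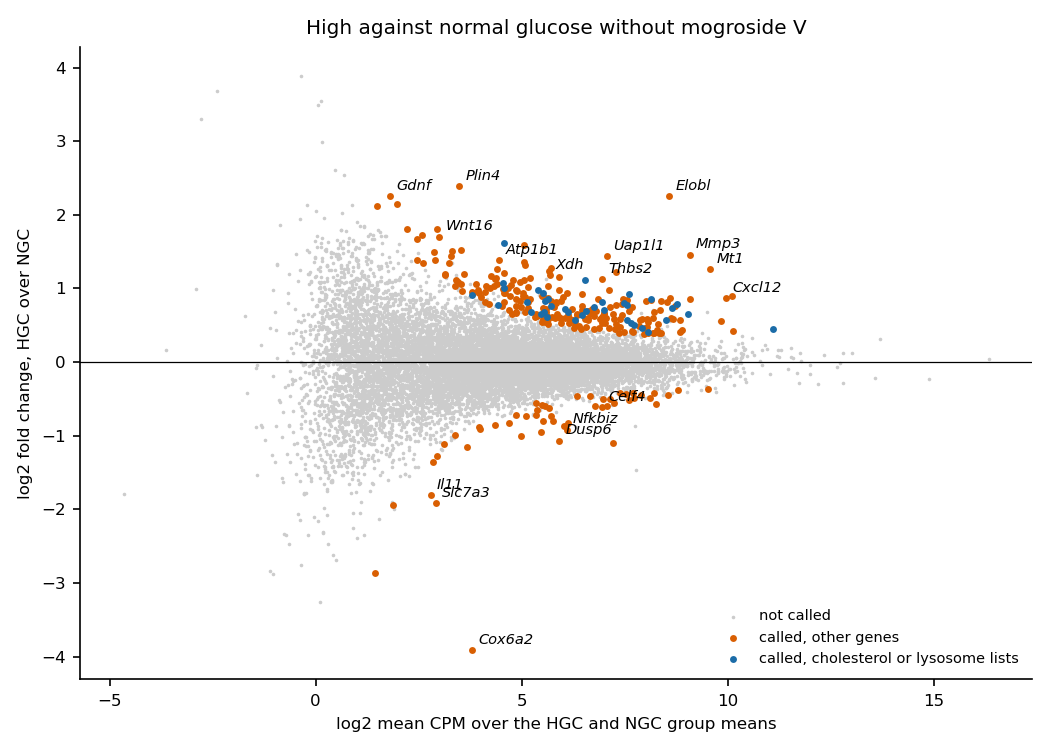
Each point is 1 of the 13281 tested genes, with its log2 mean CPM over the HGC and NGC group means on the horizontal axis and its log2 fold change, HGC over NGC, on the vertical axis. Called genes of the cholesterol and lysosome lists are blue, all other called genes orange, and the rest grey. Among the called genes Cox6a2 is the lowest, at -3.91, and Plin4 the highest, at 2.39.

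Several secreted proteins that build or cut the extracellular matrix rose. Of 21 tested matrix proteases and inhibitors 3 rose (14.3%) and none fell, with a median of 0.23. Mmp3, stromelysin-1, a protease that cleaves proteoglycans and activates other metalloproteinases, had 705, 983 and 688 CPM in the HGC libraries, against 237, 312 and 317 CPM in the NGC libraries. Its HGC libraries lay well above those of NGC, and HGC replicate 2 was the highest. The rise was 2.75-fold (log2 1.46 ± 0.13, edgeR adjusted p = 2.33e-10). Mmp13, a collagenase, had 200.0, 249 and 214 CPM in the HGC libraries, against 98.7, 97.6 and 87.3 CPM in the NGC libraries, again without overlap. It rose 2.34-fold (log2 1.22 ± 0.14, edgeR adjusted p = 5.87e-08). Of the 50-base windows of the longest Mmp3 transcript 8.39% also occur in Mmp10, so a small part of its counts is uncertain. Both metalloproteinase genes hold 1 match to the letters TGANTCA, the core that AP-1 factors bind, in the window from 250 bases before to 50 bases after the start of transcription. Those windows, from RefSeq on GRCm38.p6, are shown because both genes lie close together on chromosome 9 and rose, with the match in capitals, at chr9:7445572-7445871 and chr9:7272264-7272563, both on the + strand.
Mmp3: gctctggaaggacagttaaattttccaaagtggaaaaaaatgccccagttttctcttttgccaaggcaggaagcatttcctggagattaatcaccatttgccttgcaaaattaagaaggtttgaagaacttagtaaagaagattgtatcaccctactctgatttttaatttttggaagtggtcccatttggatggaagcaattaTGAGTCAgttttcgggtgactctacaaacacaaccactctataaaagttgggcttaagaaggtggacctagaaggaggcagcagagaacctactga
Mmp13: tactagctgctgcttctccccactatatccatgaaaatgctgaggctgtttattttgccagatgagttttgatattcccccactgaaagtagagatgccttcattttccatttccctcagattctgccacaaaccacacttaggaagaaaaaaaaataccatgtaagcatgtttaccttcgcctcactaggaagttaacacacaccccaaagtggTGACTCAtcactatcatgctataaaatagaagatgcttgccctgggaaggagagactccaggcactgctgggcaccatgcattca
On either strand TGANTCA occurs in 6.03% of the promoters of tested genes and in 10% of the 150 risen genes outside the cholesterol and lysosome lists that have a promoter in the RefSeq table. It occurs in 3 of 33 fallen genes (9.09%) and in 8.97% of all promoters in the table, and the shares were not tested. A match is a description of the letters only.

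Collagens and their crosslinking enzymes were called in 5 of 24 tested members, all higher (20.8%), with a median of 0.13. Lox, the enzyme that crosslinks collagen and elastin, had 1478, 1438 and 1384 CPM in the HGC libraries, against 852, 693 and 763 CPM in the NGC libraries. The lowest HGC library was far above the highest NGC library, and the rise was 1.86-fold (log2 0.90 ± 0.10, edgeR adjusted p = 5.87e-08). Postn, periostin, a matricellular protein, had 83.3, 62.9 and 71.2 CPM in the HGC libraries, against 41.4, 39.2 and 43.3 CPM in the NGC libraries, and rose 1.75-fold (log2 0.81 ± 0.15, edgeR adjusted p = 0.000476). Col12a1, a collagen that decorates fibrils, rose 1.51-fold (log2 0.59 ± 0.13, edgeR adjusted p = 0.00503), but was not called without HGC replicate 1 (edgeR adjusted p = 0.0549). Col11a1 and P4ha2 were the other called members, and were each lost in at least 1 of the 6 fits that left out a library. Thbs2, thrombospondin 2, a matrix protein that limits blood vessel growth, had 179, 162 and 167 CPM in the HGC libraries, against 67.5, 83.3 and 82.8 CPM in the NGC libraries. It rose 2.18-fold (log2 1.12 ± 0.12, edgeR adjusted p = 3.27e-08) and was, with Fbln5, 1 of 2 called members among 27 matrix glycoproteins and proteoglycans. Outside the lists, and chosen after the values were seen, Aebp1, a collagen-binding protein, rose 1.69-fold (log2 0.76 ± 0.10, edgeR adjusted p = 2.26e-06), and Ccn5, a matricellular protein, rose 2.42-fold (log2 1.27 ± 0.14, edgeR adjusted p = 5.87e-08). Ccn5 had 76.6, 80.2 and 64.3 CPM in the HGC libraries, against 30.8, 31.2 and 29.5 CPM in the NGC libraries.

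Among ligands and modulators of TGF-beta and BMP signalling 4 of 24 tested genes rose (16.7%) and none fell, with a median of 0.19. Tgfb2, a ligand, had 40.9, 49.7 and 53.6 CPM in the HGC libraries, against 24.3, 22.5 and 24.3 CPM in the NGC libraries, and rose 2.02-fold (log2 1.02 ± 0.18, edgeR adjusted p = 0.000233). Grem1, an antagonist that binds BMP ligands, had 145, 159 and 142 CPM in the HGC libraries, against 79.3, 79.6 and 87.3 CPM in the NGC libraries, and rose 1.81-fold (log2 0.86 ± 0.11, edgeR adjusted p = 2.56e-06). Both were separated between the media. Ltbp2 was also called, but was lost in at least 1 of the 6 fits that left out a library. Lrrc32, which anchors latent TGF-beta at the cell surface and was chosen after the values were seen, rose 2.04-fold (log2 1.03 ± 0.16, edgeR adjusted p = 2.90e-05).

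Several other secreted signals also rose. Cxcl12, a chemokine that guides cells bearing CXCR4, had 1253, 1336 and 1289 CPM in the HGC libraries, against 711, 706 and 709 CPM in the NGC libraries, with very little spread in NGC. It rose 1.82-fold (log2 0.87 ± 0.09, edgeR adjusted p = 3.42e-08). Pgf, chosen after the values were seen, encodes placental growth factor, a ligand of a VEGF receptor, and had 29.6, 35.3 and 35.6 CPM in the HGC libraries, against 15.7, 14.0 and 13.6 CPM in the NGC libraries, and rose 2.31-fold (log2 1.21 ± 0.21, edgeR adjusted p = 0.000169). Igfbp4, which binds insulin-like growth factors, had 514, 464 and 438 CPM in the HGC libraries, against 274, 262 and 268 CPM in the NGC libraries, with no overlap between the media. Of 20 tested Wnt pathway genes 2 rose and 1, Ccnd1, fell, with a median of 0.04. Wnt16, a secreted Wnt ligand, was low in every library, with 14.2, 13.4 and 8.98 CPM in the HGC libraries, against 3.34, 3.15 and 4.76 CPM in the NGC libraries. Nkd2, which binds Dishevelled and restrains Wnt signalling, had 78.2, 87.0 and 83.4 CPM in the HGC libraries, against 34.9, 39.0 and 37.3 CPM in the NGC libraries, and rose 2.24-fold (log2 1.16 ± 0.14, edgeR adjusted p = 4.86e-07). Gdnf, a neurotrophic factor, had 8.06, 2.92 and 6.37 CPM in the HGC libraries, against 1.57, 0.968 and 0.952 CPM in the NGC libraries, and rose 4.78-fold (log2 2.26 ± 0.55, edgeR adjusted p = 0.0131). Gdnf missed the threshold in 4 of the 6 fits that dropped a library (edgeR adjusted p = 0.102 with HGC replicate 1 left out, 0.0516 with HGC replicate 3 left out, 0.0793 with NGC replicate 2 left out and 0.0648 with NGC replicate 3 left out). Of 23 cytokine and inflammation genes 3 rose and 2 fell, with a median of -0.03. Il1rn, the antagonist of the interleukin-1 receptor and chosen after the values were seen, rose 1.97-fold (log2 0.98 ± 0.17, edgeR adjusted p = 0.000376). Cxcl1, a chemokine for neutrophils, rose 1.69-fold (log2 0.76 ± 0.18, edgeR adjusted p = 0.0132). Some fits without 1 library lost Cxcl1 (edgeR adjusted p = 0.0985 with HGC replicate 3 left out, 0.0881 with NGC replicate 1 left out and 0.0596 with NGC replicate 3 left out).

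Of 15 tested genes of complement and coagulation 3 rose (20%), with a median of 0.17. Serping1, the inhibitor of the first complement component, had 117, 143 and 118 CPM in the HGC libraries, against 75.7, 77.2 and 84.7 CPM in the NGC libraries, and rose 1.59-fold (log2 0.67 ± 0.13, edgeR adjusted p = 0.00104). The other called members, the complement protease gene C1s1 and Thbd, which encodes the anticoagulant thrombomodulin, were lost in at least 1 of the 6 fits that left out a library. Masp1, a protease of the lectin pathway that was chosen after the values were seen, rose 1.64-fold (log2 0.71 ± 0.12, edgeR adjusted p = 0.000148). It overlaps Rtp4, among others, on the opposite strand.

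**Figure D2:**
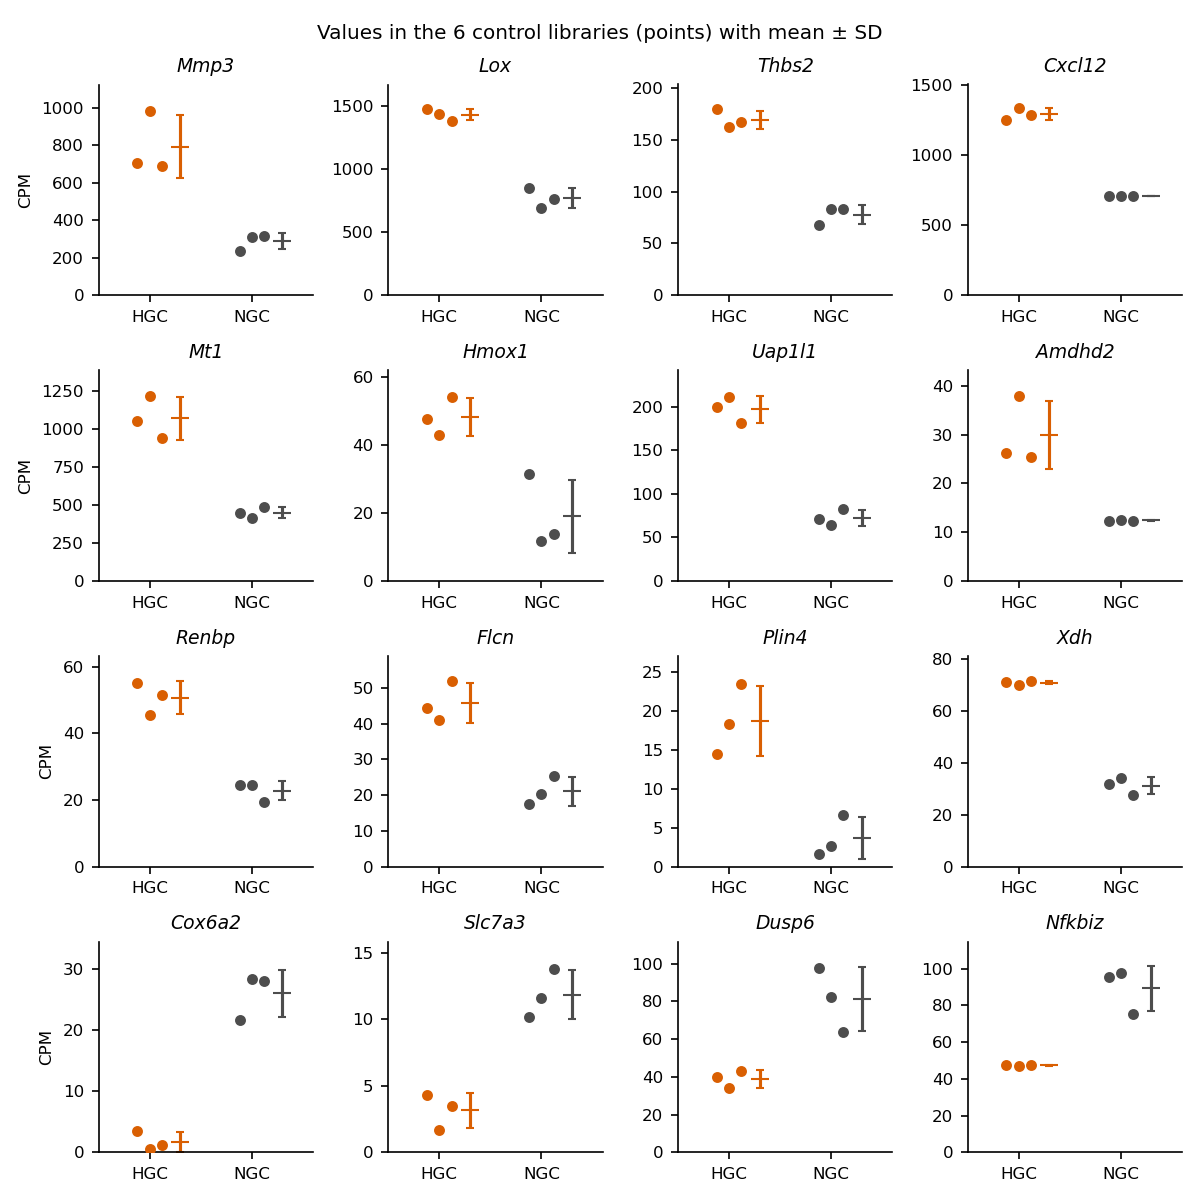
Each panel gives 1 gene in CPM from 0, with the 3 HGC libraries as orange points at the left, the 3 NGC libraries as grey points at the right, and the mean ± SD beside each group. The groups do not overlap in any of the 16 genes shown, which were picked from the called genes. Of all 303 called genes 302 do not overlap, against 17.8% of all tested genes. Calling a gene itself favours groups that do not overlap, so this is no separate support for the calls.

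Several enzymes that handle amino sugars rose. Of 10 tested genes of the hexosamine pathway and of O-GlcNAc 2 rose (20%) and none fell, with a median of 0.31. Uap1l1, whose paralog Uap1 synthesises UDP-N-acetylglucosamine, had 199.7, 211 and 181 CPM in the HGC libraries, against 71.0, 64.6 and 82.8 CPM in the NGC libraries, so that every HGC library was above every NGC library. It rose 2.71-fold (log2 1.44 ± 0.14, edgeR adjusted p = 1.88e-09). Amdhd2, which removes the acetyl group of N-acetylglucosamine-6-phosphate and returns the sugar to glycolysis, had 26.3, 38.0 and 25.5 CPM in the HGC libraries, against 12.4, 12.6 and 12.4 CPM in the NGC libraries, and rose 2.41-fold (log2 1.27 ± 0.21, edgeR adjusted p = 0.000148). Renbp, an epimerase of N-acetylglucosamine and N-acetylmannosamine, had 55.1, 45.3 and 51.5 CPM in the HGC libraries, against 24.5, 24.4 and 19.5 CPM in the NGC libraries. It was chosen after the values were seen and rose 2.21-fold (log2 1.15 ± 0.17, edgeR adjusted p = 2.61e-05). Gnpda1, a deaminase of glucosamine-6-phosphate, had 9.41, 7.31 and 8.40 CPM in the HGC libraries, against 2.35, 1.69 and 3.81 CPM in the NGC libraries, and rose 3.18-fold (log2 1.67 ± 0.41, edgeR adjusted p = 0.0177). Gnpda1 missed the threshold in 4 of the 6 fits that dropped a library (edgeR adjusted p = 0.0669 with HGC replicate 1 left out, 0.0510 with HGC replicate 3 left out, 0.108 with NGC replicate 1 left out and 0.131 with NGC replicate 2 left out). Of its 50-base windows 21.7% also occur in another gene, so its counts are uncertain.

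The promoter of Amdhd2 is shown because it holds the letters CACGTG, the E-box that factors of the TFEB, MYC and USF families can bind, 3 times. It lies at chr17:24163684-24163983 on the - strand of GRCm38.p6 in RefSeq, with the matches in capitals.
Amdhd2: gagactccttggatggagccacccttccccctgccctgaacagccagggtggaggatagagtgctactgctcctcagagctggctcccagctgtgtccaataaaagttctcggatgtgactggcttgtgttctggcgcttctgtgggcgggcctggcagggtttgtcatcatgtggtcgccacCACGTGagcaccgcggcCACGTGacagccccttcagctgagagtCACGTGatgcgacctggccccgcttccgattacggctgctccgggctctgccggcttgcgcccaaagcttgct
These letters read the same on both strands. They occur in 8.09% of all 27025 promoters in the table and in 11.9% of those of tested genes. Among risen genes outside the cholesterol and lysosome lists 38 of 150 (25.3%) hold them, and 37 of 146 (25.3%) without the proton pump genes, which leaves in other lysosome genes that the lists did not hold. Among fallen genes 4 of 33 (12.1%) do. These shares describe the letters and were not tested.

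Flcn, Fnip1 and Rragc, which act together in nutrient sensing, rose. In the list of 20 genes of translation control and mTOR 3 rose (15.0%) and none fell, with a median of 0.08. The list also holds Fnip2, the relative of Fnip1 (log2 0.71 ± 0.26, edgeR adjusted p = 0.181), and Rragd, which encodes RagD (log2 0.24 ± 0.98, edgeR adjusted p = 0.958), and neither was called. Both were chosen after the values were seen. Flcn, folliculin, the GTPase activator for RagC and RagD, had 44.4, 40.9 and 51.8 CPM in the HGC libraries, against 17.5, 20.3 and 25.5 CPM in the NGC libraries, and rose 2.17-fold (log2 1.12 ± 0.20, edgeR adjusted p = 0.000233). Fnip1, its partner, had 121, 114 and 136 CPM in the HGC libraries, against 78.7, 81.3 and 73.3 CPM in the NGC libraries, and rose 1.59-fold (log2 0.67 ± 0.12, edgeR adjusted p = 0.000500). Rragc, which encodes RagC, rose 1.48-fold (log2 0.57 ± 0.13, edgeR adjusted p = 0.00881). Fnip1 overlaps Gm24198 and Rragc overlaps Gm12902, each on the same strand. The edgeR adjusted p of Rragc was 0.0604 with NGC replicate 1 left out and 0.0652 with NGC replicate 3 left out. Chosen after the values were seen were Slc36a1, a proton-coupled amino acid transporter of lysosomes, and 2 subunits of the Ragulator complex that holds the Rag GTPases there. Slc36a1 had 44.4, 45.8 and 45.7 CPM in the HGC libraries, against 25.7, 25.9 and 25.5 CPM in the NGC libraries, and rose 1.76-fold (log2 0.82 ± 0.16, edgeR adjusted p = 0.00118). Lamtor1, which overlaps Lrrc51 and Tomt on the opposite strand, rose 1.56-fold (log2 0.64 ± 0.13, edgeR adjusted p = 0.00165). That call was lost in 1 or more of the fits without 1 library (edgeR adjusted p = 0.0594 with NGC replicate 1 left out). Lamtor4 rose 1.56-fold (log2 0.65 ± 0.14, edgeR adjusted p = 0.00373). Some fits without 1 library lost Lamtor4 (edgeR adjusted p = 0.0729 with HGC replicate 2 left out and 0.0921 with NGC replicate 1 left out). The other tested Ragulator subunits Lamtor2, Lamtor3 and Lamtor5, chosen likewise, were not called, at -0.39 ± 0.35, 0.21 ± 0.31 and 0.31 ± 0.16 on the log2 scale. These proteins act at the lysosome, so they neighbour the lysosomal genes that are set aside here.

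Metallothionein genes and the heme-degrading gene Hmox1 rose. Of 8 tested genes of metallothioneins and metal transport 2 rose (25.0%), with a median of 0.10. Mt1, a metallothionein that binds zinc and copper, had 1052, 1222 and 940.5 CPM in the HGC libraries, against 447, 412 and 485 CPM in the NGC libraries, and the groups lay far apart. It rose 2.39-fold (log2 1.26 ± 0.11, edgeR adjusted p = 2.33e-10). Its neighbour Mt2 had 294, 313 and 269 CPM in the HGC libraries, against 209.6, 149 and 223 CPM in the NGC libraries, and rose 1.51-fold (log2 0.59 ± 0.14, edgeR adjusted p = 0.0101). This depended on single libraries (edgeR adjusted p = 0.0796 with HGC replicate 2 left out and 0.142 with NGC replicate 2 left out). Hmox1, heme oxygenase 1, had 47.8, 43.1 and 54.1 CPM in the HGC libraries, against 31.4, 11.9 and 13.8 CPM in the NGC libraries. NGC replicate 1 was the highest of its group, yet below every HGC library. Hmox1 rose 2.50-fold (log2 1.32 ± 0.26, edgeR adjusted p = 0.00317), and was not called when the fit held only the HGC and NGC libraries (edgeR adjusted p = 0.0527). It was the only called gene of 20 tested antioxidant genes regulated by NRF2, whose median was -0.14. Nqo1, a quinone reductase and a textbook NRF2 target chosen after the values were seen, had 23.9, 27.8 and 18.8 CPM in the HGC libraries, against 35.1, 30.0 and 35.0 CPM in the NGC libraries, and was not called (log2 -0.50 ± 0.18, edgeR adjusted p = 0.189). The promoter of Mt1 is shown for its 3 matches to TGCNCNC, which includes the core of the metal response element. It lies at chr8:94178839-94179138 on the + strand of GRCm38.p6 in RefSeq, with the matches in capitals.
Mt1: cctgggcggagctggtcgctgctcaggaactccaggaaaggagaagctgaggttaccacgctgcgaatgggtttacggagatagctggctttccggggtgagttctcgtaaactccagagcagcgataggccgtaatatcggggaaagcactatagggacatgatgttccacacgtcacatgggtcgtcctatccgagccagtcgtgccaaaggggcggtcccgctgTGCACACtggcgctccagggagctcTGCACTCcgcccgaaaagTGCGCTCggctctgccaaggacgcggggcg
On either strand these short letters occur in 64.7% of the promoters of tested genes, so a match sets few genes apart.

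Several genes of growth factor signalling through ERK fell. Of 16 tested genes of ERK feedback and its transcriptional output 4 fell (25.0%) and none rose, with a median of -0.33. Of the 4 only 1, Dusp6, was called in all 6 fits that left out a library. The summed level of this list overlapped between the media, at 595 to 924 CPM in HGC and 750 to 1123 in NGC. Dusp6, a phosphatase that inactivates ERK, had 39.8, 33.9 and 43.1 CPM in the HGC libraries, against 97.5, 82.5 and 63.8 CPM in the NGC libraries. Every HGC library lay below every NGC library, and the fall was to 0.477 of the NGC level (log2 -1.07 ± 0.18, edgeR adjusted p = 0.000216). Il11, a cytokine, was low in every library, with 3.23, 4.39 and 1.45 CPM in the HGC libraries, against 7.85, 8.23 and 16.4 CPM in the NGC libraries, and fell to 0.286 of the NGC level (log2 -1.80 ± 0.43, edgeR adjusted p = 0.0112). The edgeR adjusted p of Il11 was 0.112 with HGC replicate 3 left out and 0.129 with NGC replicate 3 left out. Etv5, an ETS factor induced by ERK, fell to 0.541 of the NGC level (log2 -0.89 ± 0.25, edgeR adjusted p = 0.0442). Etv5 missed the threshold in 6 of the 6 fits that dropped a library (edgeR adjusted p = 0.0876 with HGC replicate 1 left out, 0.126 with HGC replicate 2 left out, 0.175 with HGC replicate 3 left out, 0.189 with NGC replicate 1 left out, 0.0876 with NGC replicate 2 left out and 0.0827 with NGC replicate 3 left out). Of its 50-base windows 26.8% also occur in another gene. Phlda1, an early ERK-induced gene, fell to 0.703 of the NGC level (log2 -0.51 ± 0.12, edgeR adjusted p = 0.00970). Some fits without 1 library lost Phlda1 (edgeR adjusted p = 0.0586 with HGC replicate 1 left out, 0.0508 with HGC replicate 2 left out and 0.176 with NGC replicate 1 left out).

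In the list of immediate early genes, which respond to growth factors within minutes, 1 of 25 fell and none rose, with a median of -0.07. Ier2 was that gene, with 35.5, 21.7 and 34.5 CPM in the HGC libraries, against 66.7, 70.2 and 38.8 CPM in the NGC libraries, and fell to 0.519 of the NGC level (log2 -0.95 ± 0.21, edgeR adjusted p = 0.00648). This depended on single libraries (edgeR adjusted p = 0.0900 with HGC replicate 2 left out, 0.0637 with NGC replicate 1 left out and 0.0709 with NGC replicate 2 left out). Without HGC replicate 2 and NG3 replicate 3 together its edgeR adjusted p was 0.0598. Egr1, an early transcription factor, had 124, 127 and 205 CPM in the HGC libraries, against 278, 325 and 227 CPM in the NGC libraries and was not called (log2 -0.87 ± 0.24, edgeR adjusted p = 0.0841). It was called by DESeq2 (adjusted p = 0.0175) and with all 24 files (edgeR adjusted p = 0.0483), and its adjusted p ranged from 0.0111 to 0.331 over the alternatives. Plk2, a kinase induced by serum and by p53, had 24.2, 16.8 and 22 CPM in the HGC libraries, against 48.9, 42.4 and 34.7 CPM in the NGC libraries, and fell to 0.498 of the NGC level (log2 -1.01 ± 0.19, edgeR adjusted p = 0.000841). It was the only called gene among 15 tested p53 targets, whose median was 0.28. Nfkbiz, which encodes the nuclear inhibitor-like protein IkB-zeta, had 47.3, 47.0 and 47.5 CPM in the HGC libraries, against 95.2, 97.3 and 75.2 CPM in the NGC libraries, with almost no spread in HGC. It fell to 0.530 of the NGC level (log2 -0.92 ± 0.15, edgeR adjusted p = 8.23e-05). Ptgs2, the inducible cyclooxygenase, had 112, 63.1 and 109 CPM in the HGC libraries, against 240.0, 200.4 and 165 CPM in the NGC libraries, and fell to 0.469 of the NGC level (log2 -1.09 ± 0.23, edgeR adjusted p = 0.0122). The edgeR adjusted p of Ptgs2 was 0.0757 with NGC replicate 1 left out. Prkg2, a cyclic GMP-dependent kinase, had 43.8, 48.7 and 46.6 CPM in the HGC libraries, against 92.4, 87.6 and 73.7 CPM in the NGC libraries, and fell to 0.548 of the NGC level (log2 -0.87 ± 0.15, edgeR adjusted p = 0.000156).

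Of 12 tested cyclins and inhibitors of cyclin-dependent kinases 2 fell (16.7%) and none rose, with a median of 0.10. Ccnd1, cyclin D1, which drives entry into the cycle downstream of ERK, had 51.1, 49.2 and 51.5 CPM in the HGC libraries, against 92.6, 103 and 74.0 CPM in the NGC libraries, and fell to 0.563 of the NGC level (log2 -0.83 ± 0.19, edgeR adjusted p = 0.0117). Ccnd1 missed the threshold in 4 of the 6 fits that dropped a library (edgeR adjusted p = 0.0794 with HGC replicate 2 left out, 0.0510 with HGC replicate 3 left out, 0.0624 with NGC replicate 1 left out and 0.0861 with NGC replicate 2 left out). Ccnd2, cyclin D2, fell to 0.775 of the NGC level (log2 -0.37 ± 0.10, edgeR adjusted p = 0.0390). In 4 of the 6 fits lacking 1 library Ccnd2 was not called (edgeR adjusted p = 0.173 with HGC replicate 1 left out, 0.140 with HGC replicate 3 left out, 0.214 with NGC replicate 1 left out and 0.126 with NGC replicate 2 left out). It was also lost when the fit held only the HGC and NGC libraries (edgeR adjusted p = 0.0896). None of 26 tested mitosis genes was called, although all 26 had a negative log2 change, with a median of -0.21, against -0.20 between the treated media. Over all tested genes 48.3% had a positive log2 change. The summed level of the mitosis list, scaled to the total of all gene counts, was 4991 to 5136 CPM in HGC. In NGC it was 5729 to 6209 CPM, without overlap. Such a lack of overlap was seen in many lists, as in DNA replication, at 3124 to 3192 CPM in HGC and 3362 to 3504 in NGC. Of 27 tested DNA replication genes 1 fell, with a median of -0.13. In axon guidance and ephrin signalling 3 of 27 fell, namely Sema3c, Sema7a and Slit2, each of which was lost in at least 1 fit that left out a library. Pcdh19, an adhesion molecule of the protocadherin family chosen after the values were seen, had 256, 215 and 273 CPM in the HGC libraries, against 389, 373 and 340.2 CPM in the NGC libraries, and fell to 0.675 of the NGC level (log2 -0.57 ± 0.11, edgeR adjusted p = 0.00104).

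**Figure D3:**
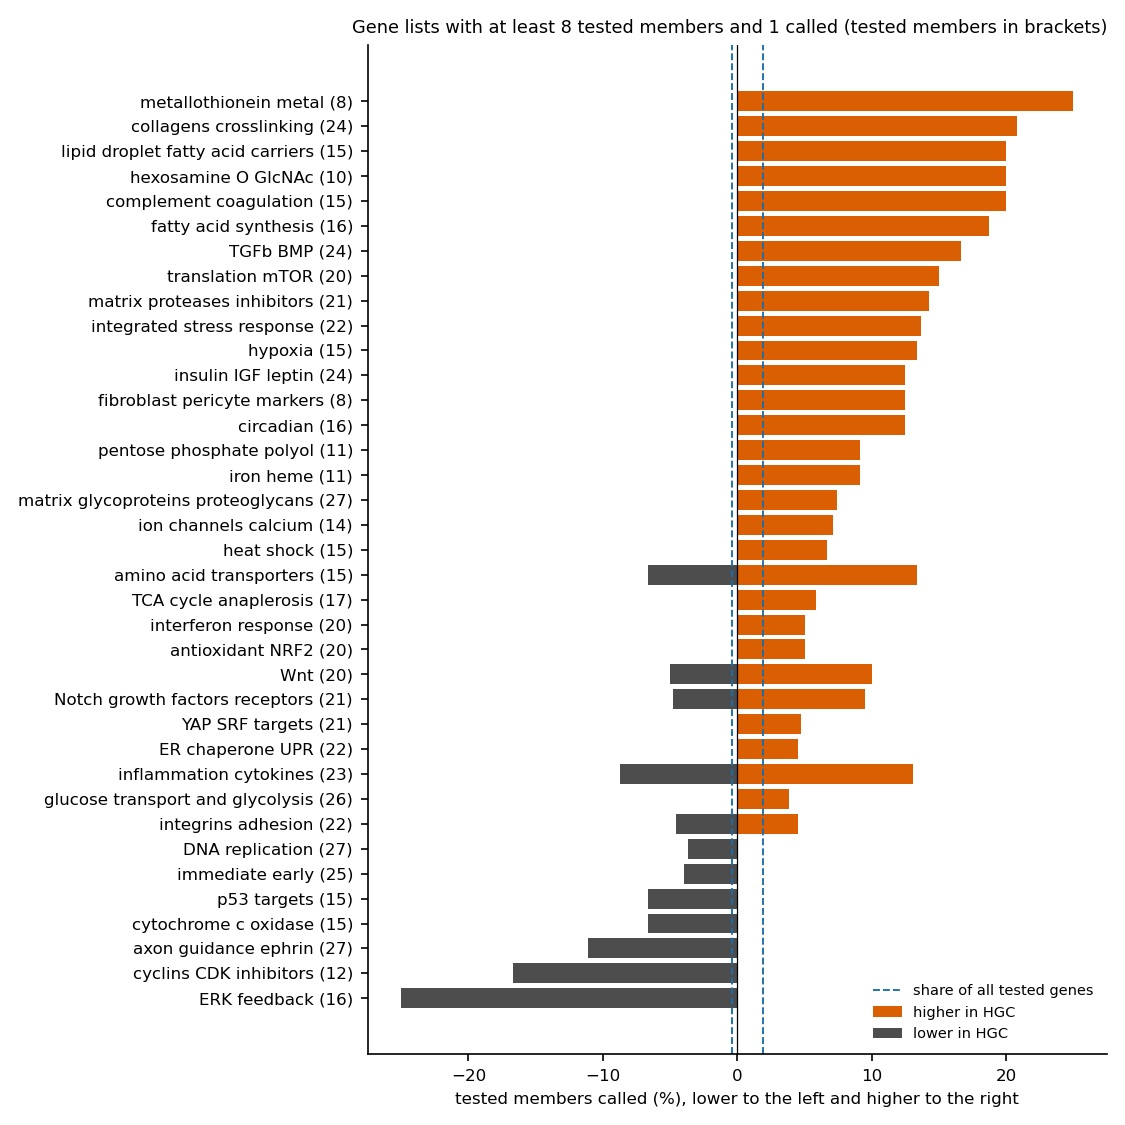
Bars give the percentage of tested members called higher in HGC, in orange to the right, and lower in HGC, in grey to the left, for each list with at least 8 tested members and 1 called, other than the 3 cholesterol and lysosome lists set aside. Tested members are in brackets, and dashed lines mark the 1.89% higher and 0.392% lower over all tested genes. Among the lists drawn ERK feedback has the longest bar to the left, at 25.0%, and metallothionein and metal transport the longest to the right, at 25.0%. All lists were chosen with earlier results of these data known. In the 58 lists not set aside 74 of 869 tested members were called.

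Few of the tested energy genes were called. Cox6a2, a cytochrome c oxidase subunit that striated muscle normally uses, had 3.49, 0.487 and 1.16 CPM in the HGC libraries, against 21.6, 28.3 and 28.1 CPM in the NGC libraries. It fell to 0.0663 of the NGC level (log2 -3.91 ± 0.42, edgeR adjusted p = 9.65e-08). Cox6a1, the form found in most tissues, had 481, 555 and 463 CPM in the HGC libraries, against 407, 445 and 493 CPM in the NGC libraries, and was not called (log2 0.16 ± 0.10, edgeR adjusted p = 0.598). None of the other 14 tested cytochrome c oxidase genes and none of 23 tested genes of the other respiratory complexes was called. Of 11 listed muscle markers, Cox6a2 included, 3 were tested and 3, Myod1 among them, had no count in the 6 libraries. Ckm had 1 count in the 6 libraries together, Des 35 and Tnnt2 49. Of 26 tested genes of glucose transport and glycolysis 1 rose (3.85%), and 19 had a positive log2 change, as had 48.3% of all tested genes. The median of this list was 0.19, against 0.17 between the treated media. The summed level of this list, scaled to the total of all gene counts, was 1888 to 2010.0 CPM in HGC and 1635 to 1836 CPM in NGC, without overlap. Sums of many other lists did not overlap either, such as that of hypoxia, at 574 to 607 CPM in HGC and 522 to 535 in NGC. That of the other respiratory complexes did overlap, at 4233 to 4579 CPM in HGC and 4062 to 4489 in NGC. Ldhb, a subunit of lactate dehydrogenase, had 37.9, 48.5 and 40.2 CPM in the HGC libraries, against 21.0, 21.1 and 17.6 CPM in the NGC libraries, and 27.0% of its 50-base windows also occur in another gene. Slc2a1, the glucose transporter GLUT1, and Hk2, a hexokinase, were not called, at 0.18 ± 0.18 and 0.27 ± 0.16 on the log2 scale. Of 9 tested genes of the carbohydrate response none was called. Of these 6 had a negative log2 change, and the median was -0.13, against -0.04 between the treated media. The summed level of that list was 251 to 269 CPM in HGC and 282 to 341 CPM in NGC, also without overlap. Txnip, its best-known member, which overlaps Gm15441 on the opposite strand, had 84.7, 72.1 and 69.5 CPM in the HGC libraries, against 88.5, 119 and 168 CPM in the NGC libraries, and was not called (log2 -0.73 ± 0.22, edgeR adjusted p = 0.117). It was called without NGC replicate 1 (edgeR adjusted p = 0.0172), without the low-count filter (edgeR adjusted p = 3.74e-05) and by DESeq2 (adjusted p = 0.0196), in a range up to 0.366 over the alternatives. Chosen after the values were seen, Pdp2, a phosphatase that activates pyruvate dehydrogenase, had 37.9, 41.2 and 32.4 CPM in the HGC libraries, against 18.4, 20.3 and 23.1 CPM in the NGC libraries, and rose 1.81-fold (log2 0.86 ± 0.18, edgeR adjusted p = 0.00295). Xdh, xanthine dehydrogenase of purine breakdown, was also chosen so, with 71.2, 70.2 and 71.5 CPM in the HGC libraries, against 32.0, 34.1 and 27.6 CPM in the NGC libraries, and rose 2.27-fold (log2 1.18 ± 0.15, edgeR adjusted p = 1.04e-06). It overlaps CT025731.2 on the same strand, and 8.59% of its 50-base windows also occur in another gene, so part of its counts is uncertain.

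Lipid storage genes rose in part. Of 15 tested genes of lipid droplets and fatty acid carriers 3 rose (20%) and none fell, with a median of 0.26. Plin4, a coat protein of lipid droplets, had 14.5, 18.3 and 23.5 CPM in the HGC libraries, against 1.57, 2.66 and 6.66 CPM in the NGC libraries, and overlaps Hdgfl2 on the opposite strand. Plin2, the droplet coat protein found in most cells and chosen after the values were seen, was not called (log2 0.26 ± 0.17, edgeR adjusted p = 0.593). Fabp4, a fatty acid carrier of adipocytes and macrophages, had 12.4, 7.55 and 7.82 CPM in the HGC libraries, against 1.96, 1.21 and 5.23 CPM in the NGC libraries, and rose 3.30-fold (log2 1.72 ± 0.43, edgeR adjusted p = 0.0204). This depended on single libraries (edgeR adjusted p = 0.130 with HGC replicate 1 left out, 0.161 with NGC replicate 1 left out and 0.163 with NGC replicate 2 left out). Fabp5, a related carrier, rose 1.69-fold (log2 0.75 ± 0.16, edgeR adjusted p = 0.00683). The edgeR adjusted p of Fabp5 was 0.0794 with HGC replicate 2 left out and 0.0694 with NGC replicate 1 left out. Without HGC replicate 2 and NG3 replicate 3 together it stood at edgeR adjusted p = 0.105. Scd2, a fatty acid desaturase of the sterol-responsive SREBP program, had 427, 389 and 404 CPM in the HGC libraries, against 234, 267 and 245 CPM in the NGC libraries, and was 1 of 3 risen members among 16 genes of fatty acid synthesis. The other 2, Fads1 and Slc25a1, were lost in at least 1 fit that left out a library. None of 13 tested genes of fatty acid oxidation was called.

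Membrane transporters moved both ways. Of 15 tested amino acid transporters 2 rose and 1 fell, with a median of -0.06. The cationic amino acid transporters Slc7a3 and Slc7a2 went in opposite directions. Slc7a3 had 4.30, 1.71 and 3.47 CPM in the HGC libraries, against 10.2, 11.6 and 13.8 CPM in the NGC libraries, and fell to 0.266 of the NGC level (log2 -1.91 ± 0.37, edgeR adjusted p = 0.00103). Slc7a2 had 232, 240.3 and 254 CPM in the HGC libraries, against 119.7, 145 and 139.9 CPM in the NGC libraries, and rose 1.79-fold (log2 0.84 ± 0.12, edgeR adjusted p = 7.44e-06). Atp1b1, a subunit of the sodium pump that overlaps Nme7 on the opposite strand, had 28.0, 36.8 and 30.4 CPM in the HGC libraries, against 10.8, 12.6 and 13.1 CPM in the NGC libraries, and rose 2.62-fold (log2 1.39 ± 0.24, edgeR adjusted p = 0.000177). Chosen after the values were seen, Slc24a3, an exchanger of sodium for calcium and potassium, had 171, 208 and 171 CPM in the HGC libraries, against 92.2, 92.7 and 94.0 CPM in the NGC libraries, and rose 1.97-fold (log2 0.98 ± 0.12, edgeR adjusted p = 6.36e-07). Slc20a1, a phosphate transporter chosen in the same way, had 207, 239.8 and 209 CPM in the HGC libraries, against 127, 125 and 127 CPM in the NGC libraries, and rose 1.73-fold (log2 0.79 ± 0.11, edgeR adjusted p = 6.36e-06).

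Stress genes rose in few members. Of 22 tested genes of the integrated stress response 3 rose (13.6%), with a median of 0.20, and none of the 3 was called in all 6 fits that left out a library. Ddit3, the stress factor CHOP, had 34.9, 33.9 and 33.3 CPM in the HGC libraries, against 18.2, 18.2 and 14.5 CPM in the NGC libraries, and rose 2.0-fold (log2 1.0 ± 0.23, edgeR adjusted p = 0.00747). That call was lost in 1 or more of the fits without 1 library (edgeR adjusted p = 0.0596 with NGC replicate 3 left out). It overlaps Mars on the opposite strand. Chac1, which degrades glutathione, rose 2.09-fold (log2 1.06 ± 0.29, edgeR adjusted p = 0.0387). In 6 of the 6 fits lacking 1 library Chac1 was not called (edgeR adjusted p = 0.103 with HGC replicate 1 left out, 0.0625 with HGC replicate 2 left out, 0.130 with HGC replicate 3 left out, 0.187 with NGC replicate 1 left out, 0.0745 with NGC replicate 2 left out and 0.102 with NGC replicate 3 left out). Without the low-count filter its edgeR adjusted p was 0.0563. Atf4, the factor that drives both and was chosen after the values were seen, had 426, 371 and 499.8 CPM in the HGC libraries, against 388, 277 and 257 CPM in the NGC libraries. Atf4 overlapped between the media and was not called (log2 0.49 ± 0.19, edgeR adjusted p = 0.260), but passed without the low-count filter (edgeR adjusted p = 0.00637), in a range of 0.00637 to 0.547 over the alternatives. Of 22 tested ER chaperone genes 1 rose, Herpud1, which takes part in clearing misfolded proteins from the ER, with 80.4, 69.5 and 67.8 CPM in the HGC libraries, against 45.1, 40.7 and 38.8 CPM in the NGC libraries.

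Several regulators outside these pathways rose. Bhlhe40, a repressor in the circadian clock, had 37.9, 31.0 and 44.9 CPM in the HGC libraries, against 17.9, 12.3 and 22.1 CPM in the NGC libraries, and was 1 of 2 called among 16 tested circadian genes. The 4 others were chosen after the values were seen. Klf9, a factor induced by glucocorticoids, had 374, 464 and 454 CPM in the HGC libraries, against 230.2, 249 and 244 CPM in the NGC libraries, and rose 1.79-fold (log2 0.84 ± 0.13, edgeR adjusted p = 7.16e-05). Npr3, the clearance receptor for natriuretic peptides, had 377, 354 and 357 CPM in the HGC libraries, against 202, 189 and 215 CPM in the NGC libraries, and rose 1.79-fold (log2 0.84 ± 0.11, edgeR adjusted p = 2.56e-06). Rgs4, which speeds the shut-off of G proteins, rose 2.06-fold (log2 1.04 ± 0.19, edgeR adjusted p = 0.000481), and Ptgfr, the receptor of prostaglandin F2-alpha, rose 1.92-fold (log2 0.94 ± 0.19, edgeR adjusted p = 0.00165). Npy1r, a receptor of neuropeptide Y and the only tested gene of a list on feeding and glucose sensing, had 2.15, 3.17 and 4.92 CPM in the HGC libraries, against 1.57, 0.968 and 0.714 CPM in the NGC libraries and was not called (edgeR adjusted p = 0.273).

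Elobl, a gene named for its likeness to the elongin subunit gene Elob, changed at a high level. It had 601, 621 and 674 CPM in the HGC libraries, against 151, 126 and 121 CPM in the NGC libraries, and the lowest HGC library was far above the highest NGC library. It rose 4.76-fold (log2 2.25 ± 0.14, edgeR adjusted p = 8.59e-15). None of the 770 windows of 50 bases in its longest transcript occurs in Elob, but 12.5% occur in Coil, so its counts are uncertain. Elob itself, chosen after the values were seen, was not called (log2 0.10 ± 0.10, edgeR adjusted p = 0.792), and its counts are uncertain too, since it overlaps Srrm2 on the opposite strand and shares 50-base windows with another gene.

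The same media were also compared in the libraries that received mogroside V. HG1 to HG3 (7 libraries) were set against NG1 to NG3 (9 libraries), with no library shared with the controls, and 4.69% of all tested genes were called higher and 3.41% lower. Of the 213 genes that rose in the controls 204 had the same sign there and 130 (61.0%) were called higher, with a median of 0.38. Of the 52 that fell 43 had the same sign and 24 (46.2%) were called lower, with a median of -0.30. Genes called in the controls were chosen for their large changes there, which can make the control medians larger than the treated ones. The part of mogroside V in the smaller treated medians was not tested. Mmp3 ranged over 619.9 to 815 CPM in treated high glucose (median 719), against 303 to 423 CPM in treated normal glucose (median 338). The media did not overlap there, and the change was log2 1.05 ± 0.08 (edgeR adjusted p = 6.38e-13). Uap1l1 ranged over 168 to 204 CPM in treated high glucose (median 182), against 61.9 to 109.7 CPM in treated normal glucose (median 79.4), again without overlap, and changed by log2 1.18 ± 0.08 (edgeR adjusted p = 2.24e-13). Cox6a2 ranged over 0.277 to 5.29 CPM in treated high glucose (median 2.32), against 15.9 to 35.7 CPM in treated normal glucose (median 23.8), and changed by log2 -3.50 ± 0.27 (edgeR adjusted p = 2.15e-11). Mt1, Lox and Thbs2 changed by 0.95 ± 0.07, 0.63 ± 0.06 and 0.87 ± 0.07 on the log2 scale.

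Some genes called in the controls were not called between the treated media. Scd2 ranged over 326 to 410.1 CPM in treated high glucose (median 372), against 291 to 363 CPM in treated normal glucose (median 331), and the change was log2 0.18 ± 0.07 (edgeR adjusted p = 0.0999). The ranges of the media overlapped there. Pgf stood at log2 0.32 ± 0.13 (edgeR adjusted p = 0.121) and Il1rn at log2 0.22 ± 0.11 (edgeR adjusted p = 0.236). Slc7a3 ranged over 4.18 to 8.04 CPM in treated high glucose (median 6.36), against 4.48 to 11.8 CPM in treated normal glucose (median 8.21), and stood at log2 -0.36 ± 0.22 (edgeR adjusted p = 0.356). Ptgs2 stood at log2 -0.28 ± 0.14 (edgeR adjusted p = 0.288), Herpud1 at log2 0.22 ± 0.10 (edgeR adjusted p = 0.170) and Lamtor1 at log2 0.14 ± 0.08 (edgeR adjusted p = 0.304). Ccnd2, which fell in the controls, stood at log2 0.02 ± 0.06 (edgeR adjusted p = 0.911). Cxcl1, Lamtor4, Serping1 and Il11 were not called either (edgeR adjusted p = 0.502, 0.471, 0.268 and 0.109). The difference between the control change and the treated change was tested in the same fit, and none of these genes passed (edgeR adjusted p of the difference = 0.142 for Scd2, 0.218 for Pgf, 0.218 for Il1rn, 0.218 for Slc7a3, 0.386 for Ptgs2, 0.271 for Herpud1 and 0.261 for Lamtor1). For Ccnd2, Cxcl1, Lamtor4, Serping1 and Il11 the edgeR adjusted p of the difference was 0.268, 0.401, 0.268, 0.239 and 0.536. The genes given here as called only in the controls are therefore not shown to differ between treated and untreated cells. Conversely, several genes given above as not called in the controls were called between the treated media, each with the sign it had in the controls. Fnip2 stood at log2 0.62 ± 0.16 (edgeR adjusted p = 0.0122), Hk2 at log2 0.58 ± 0.10 (edgeR adjusted p = 0.000133), Atf4 at log2 0.71 ± 0.12 (edgeR adjusted p = 0.000557), Npy1r at log2 1.27 ± 0.38 (edgeR adjusted p = 0.0288) and Plin2 at log2 0.34 ± 0.10 (edgeR adjusted p = 0.0364). Nqo1 stood at log2 -0.79 ± 0.12 (edgeR adjusted p = 8.21e-06), Egr1 at log2 -0.89 ± 0.15 (edgeR adjusted p = 0.00149) and Txnip at log2 -0.57 ± 0.14 (edgeR adjusted p = 0.0147). The difference between the control and the treated change passed for none of them (edgeR adjusted p of the difference 0.694 to 0.993).

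Celf4, an RNA-binding protein of neurons, was the 1 gene of 13281 (0.00753%) whose difference passed. It was chosen after the values were seen. Celf4 had 105, 82.9 and 105 CPM in the HGC libraries, against 150.5, 148 and 148 CPM in the NGC libraries, and fell to 0.653 of the NGC level (log2 -0.61 ± 0.13, edgeR adjusted p = 0.00188). In the treated libraries it ranged over 117 to 145 CPM in treated high glucose (median 127), against 98.3 to 129.5 CPM in treated normal glucose (median 108), and stood at log2 0.22 ± 0.08 (edgeR adjusted p = 0.0702). The control change minus the treated change was -0.84 ± 0.15 (edgeR adjusted p = 0.0172). That p was 0.191 without HGC replicate 2, 0.0830 without NGC replicate 2 and 0.0535 without NGC replicate 3, so the call rests on single libraries. Over all genes 1126 of 13281 (8.48%) had an unadjusted p under 0.05 for this difference, and DESeq2 called 72 of 28284 genes. Among the 265 called control genes outside the cholesterol and lysosome lists 124 (46.8%) had such an unadjusted p. Those genes were chosen by the control change, which is itself part of the difference.

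**Figure D4:**
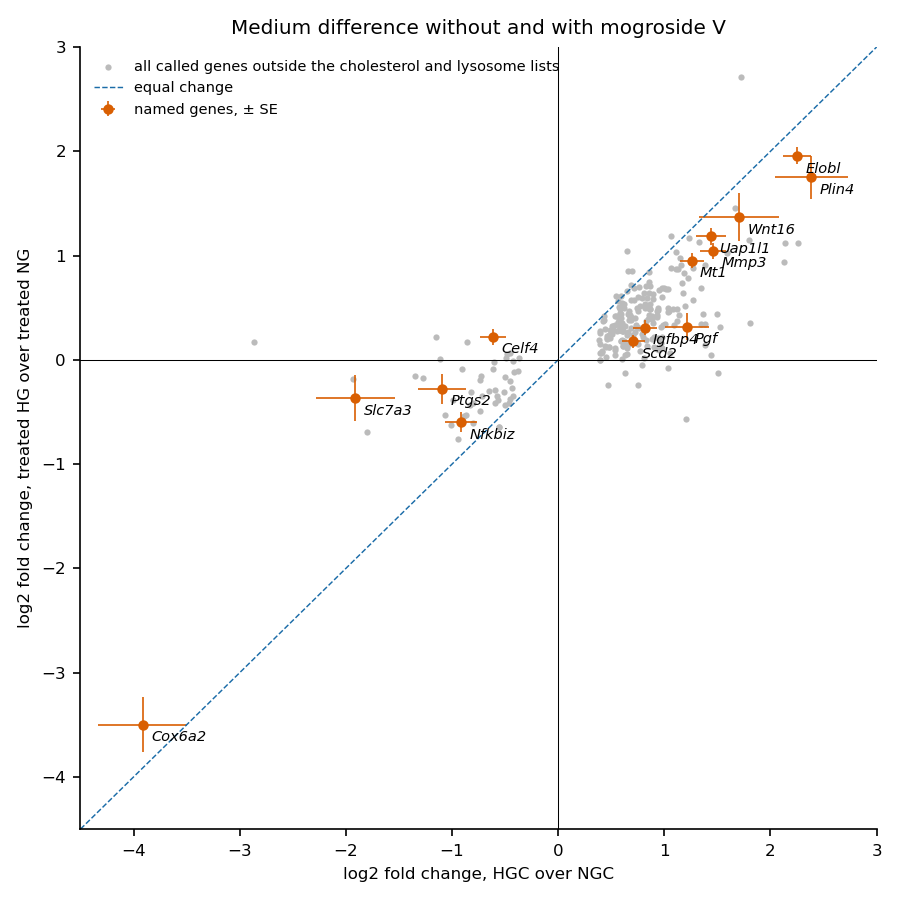
Each grey point is 1 of the 265 called control genes outside the cholesterol and lysosome lists, with its log2 fold change in the controls on the horizontal axis and that of treated high glucose over treated normal glucose on the vertical axis. Orange points are named genes ± SE, and the dashed line marks equal change. Of the 213 risen genes 204, and of the 52 fallen genes 43, lie on the same side of 0 on both axes, and Celf4 lies at -0.61 and 0.22.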

How the data were processed

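Polyadenylated RNA was sequenced, and the authors deposited unnormalized counts of reads, as whole numbers for each gene, in a file for each library. Named in the submitters' processing notes are HTSeq 1.99.2, STAR 2.7.5c, FastQC 0.11.9, DESeq2 3.16 and the build GRCm39. Whether strand was used in counting was not stated, so overlapping genes on opposite strands cannot be told apart. The 5 HTSeq summary lines stayed out of library sizes and tests. Symbols matched 51948 of 56941 IDs, which hold 91.8% of gene counts. A single ID without a symbol took 7.74 to 9.09% of gene counts in the HGC libraries and 6.98 to 8.55% in the NGC libraries.

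Groups were read from the sample titles. The files of HG2 replicate 3 and HG3 replicate 2 were identical on all 56941 lines, and both were left out, which departs from the planned use of all 24 files. The main test was edgeR 4.0.16 (R 4.3.3) on the deposited counts, with filterByExpr's low-count filter, TMM factors, group means over the 22 libraries kept, 14 residual degrees of freedom and quasi-likelihood F tests, adjusted by the Benjamini-Hochberg method over 13281 genes at a threshold of 0.05. The treated comparison is the mean of HG1, HG2 and HG3 against that of NG1, NG2 and NG3, and the difference is the control change minus the treated change. At this depth the change from NGC to HGC had a median standard error of 0.23 (log2). Replicates of a control group differed by more than counting noise (chi-square per degree of freedom 3.42 to 7.54).

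The comparison, the 61 gene lists and the rule for named genes were chosen with earlier results of these data known. The rule takes, outside the 3 lists set aside, the 20 largest rises and 20 largest falls among called genes that have a symbol, a mean of 5 CPM or more in either medium and no overlap, then the 4 members with the lowest p in every list, and 15 fixed glucose and feeding genes. It gives 246 genes, of which those described were picked after the values were seen; genes outside the rule are marked where they appear. One gene the rule gives is counted within its lists but not reported here. Of the 20 named rises 10, and of the 20 named falls 6, stayed called whichever of the 6 control libraries was left out. Alternatives were DESeq2 1.42.0, RLE factors, only the groups compared, no low-count filter, the replicate number as a block, each control library left out, all 24 files, HGC replicate 2 and NG3 replicate 3 left out together, and GC trends removed. Simulated counts with known changes were used to test the fit. Promoters are RefSeq sequences on GRCm38.p6, a different build from that of the counts, and 50-base windows were compared between transcripts of the GENCODE reference. Overlaps and shared windows are given above for some of the described genes and not for all that have them.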

Additional observations from a re-analysis of the deposited data

Results flagged for a closer look

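Celf4 was flagged because the change between the media differed between untreated and treated cells in the test of that difference itself. The control change minus the treated change was -0.84 ± 0.15 (SE) on the log2 scale (edgeR adjusted p = 0.0172), from -0.61 ± 0.13 for HGC against NGC and 0.22 ± 0.08 for treated high against treated normal glucose. All 3 HGC libraries were below all 3 NGC libraries. The adjusted p was 0.0408 to 0.191 over the 6 fits that left out 1 control library, and 0.0803 without HGC replicate 2 and NG3 replicate 3 together.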

How the results depend on the processing

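The count of 303 called genes, cholesterol and lysosome lists included, was 163 to 258 when 1 control library was left out, with 166 without HGC replicate 2, 163 without NGC replicate 1 and 184 without NGC replicate 2. It was 380 by DESeq2, 332 with all 24 files and 279 without HGC replicate 2 and NG3 replicate 3 together, of which 294, 299 and 224 were among the 303. The 74 called members of the 58 lists not set aside, of 869 tested, became 40 to 55 when 1 control library was left out, with 44, 40 and 46 without HGC replicate 2, NGC replicate 1 and NGC replicate 2. The 1 gene called for the difference became 42 without the low-count filter, 6 with all 24 files, 72 by DESeq2 and 0 to 2 when 1 control library was left out, an alternative added after seeing the data. Without HGC replicate 2 and NG3 replicate 3 together 1 gene was called, and it was not Celf4. The cause of these shifts was not tested. The difference uses all 8 groups, so a fit on only its groups is the main fit.

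With the replicate number as a block 302 genes were called, of which 289 were among the 303. Same-numbered controls did not deviate together (correlations 0.06, 0.04 and -0.04), so the numbers are not taken as pairs.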
